A study of Homo sapiens with 12 samples.

Results

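The secreted WNT antagonists examined here are 9 genes, DKK1, DKK2, DKK3, DKK4, SFRP1, SFRP2, SFRP4, SFRP5 and WIF1, chosen by name among the 34687 gene rows of an expression array table. All 9 had a row. They were followed in HCT116, a human colon cancer line, and PANC1, a human pancreatic ductal carcinoma line, over 12 groups. Cells of each line were given the solvent alone (0.05% DMSO) or 1 of the compounds ICG-001 and C646, each at 10 uM. RNA was taken at 12 and at 96 h. ICG-001 blocks the binding of the co-activator CBP to β-catenin, and C646 inhibits the histone acetyltransferase activity of CBP and its relative p300. Each group was 1 column of values, the mean of 2 arrays or, for PANC1 with ICG-001 at 12 h, of 3 arrays. There is therefore no error, no test and no replicate check on any difference below. Both models are single established lines. Cells of the 96 h groups were plated more sparsely than those of the 12 h groups, were passaged, and received fresh drug daily, so time, density and passage cannot be told apart.

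WNT proteins are secreted signals that bind Frizzled receptors together with the co-receptors LRP5 and LRP6, which keeps β-catenin from being destroyed and lets it act with TCF/LEF factors in the nucleus. Secreted antagonists stop the signal outside the cell. DKK proteins bind LRP5 and LRP6, whereas SFRP proteins and WIF1 bind the WNT proteins themselves. DKK1 is itself known as a target gene of β-catenin and TCF, which makes it part of a negative feedback loop, and several SFRP genes and WIF1 are known to be silenced in colorectal cancers.

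The window before the DKK1 start is shown because DKK1 had the largest drug response of the 9 genes and because both drugs act on co-activators of β-catenin and TCF. It is the 250 bases on the plus strand of chr10:52314031-52314280 (RefSeq, GRCh38.p14). Capitals mark matches to CTTTGA, a form of the core that TCF/LEF factors bind, on either strand, and to TATAAA, the TATA box. Other forms of the TCF/LEF core were not searched, so unmarked letters may hold further ones.

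DKK1: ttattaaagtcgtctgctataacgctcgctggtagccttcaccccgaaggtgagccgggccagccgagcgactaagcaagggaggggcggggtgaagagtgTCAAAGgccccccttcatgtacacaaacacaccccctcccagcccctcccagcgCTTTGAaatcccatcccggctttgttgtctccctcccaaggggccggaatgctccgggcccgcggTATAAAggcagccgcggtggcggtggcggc

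The window held 2 matches to CTTTGA, 1 on each strand, 149 to 144 and 95 to 90 bases before the start, and 1 match to TATAAA, 30 to 25 bases before it. The motifs did not overlap. Of 35116 promoter windows of this length, 11.2% had a match to CTTTGA on either strand, 0.977% had 2 or more, and 10.7% had a match to TATAAA. Of the 9 genes, 5 had a window, and DKK2, DKK3, DKK4 and SFRP1 had none. The windows of SFRP2, SFRP4, SFRP5 and WIF1 held neither motif. Those genes were detected in neither line, as given below, so the motifs cannot be set against a drug response. The number of CpG dinucleotides, the sites of DNA methylation, was 18 for DKK1, 11 for SFRP2, 17 for SFRP4, 21 for SFRP5 and 27 for WIF1, against a median of 11 over all windows. A match describes letters only, and neither binding nor methylation was measured here.

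Signals are brightness values on a linear scale with background left in, so most unexpressed genes sit at a common low value. For each column a detection limit was set above the background peak of the log2 signals, at the distance that leaves about 1% of a normal curve with the spread of the values below the peak. These limits were 144.5 to 145.4 for HCT116 and 136.6 to 138.8 for PANC1 in units of signal, and 43.4% to 45.9% of all genes in a column were above it. Among genes never above the limit in a line, log2 ratios between columns had an SD of 0.062 to 0.074, which is used below as a yardstick for small steps and is not a replicate error. It comes from dim genes alone and does not measure the noise of brighter ones, so a larger step is not thereby shown to be real. The 5 epithelial markers tested (EPCAM, CDH1, KRT8, KRT18 and KRT19) were above the limit in every column of both lines. Of 6 colon markers only CDX2 was above it in all HCT116 columns, and CDX1, VIL1, CDH17, LGALS4 and CEACAM5 were above it in none. CDX2 was also above the limit in all PANC1 columns and LGALS4 in 5 of them. Of KRT7, VIM, CDH2 and ZEB1, listed for PANC1, the first 3 were above the limit in all PANC1 columns and ZEB1 in 5, and in HCT116 VIM was above it in 6 and KRT7 in 4. The endothelial markers PECAM1, VWF and CDH5 and the leukocyte markers PTPRC and CD3E were above it in no column, and CD68 was above it in all. Of 5 fibroblast markers, COL1A1 was above the limit throughout, COL3A1 in 5 PANC1 columns and no HCT116 column, and COL1A2, DCN and LUM in no column.

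Few of the antagonists were detected. In HCT116, DKK1 was above the limit in all 6 columns and the other 8 genes in none. In PANC1, DKK1, DKK3 and SFRP1 were above it in all 6 columns and the other 6 genes in none. Signals are compared within a line only, because the sorted values of the lines did not match as those within a line did. The mean absolute difference of sorted log2 signals was 0.0037 to 0.0093 between columns of a line and 0.063 to 0.066 between lines.

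**Figure D1:**
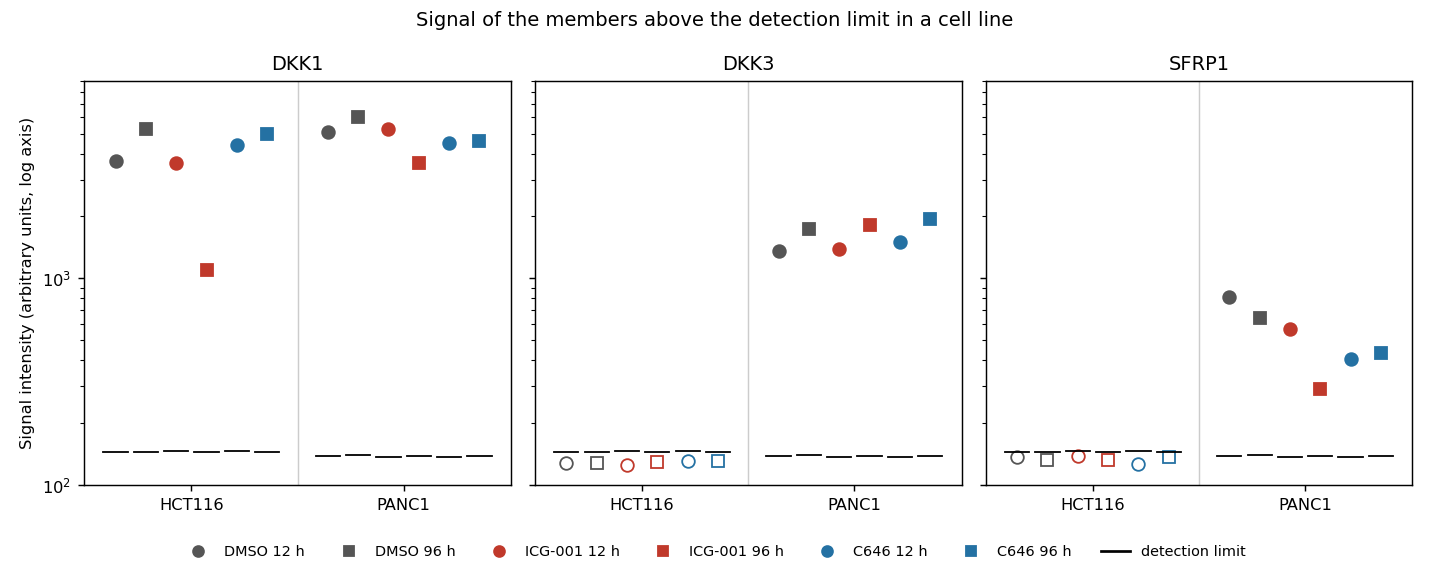
Signal intensity (arbitrary units, log axis) of DKK1, DKK3 and SFRP1 in each of the 12 columns, by cell line, with colour for treatment and shape for time; black dashes are the detection limit and open symbols lie at or under it. DKK1 was detected in both lines and was lowest at 1095 in HCT116 after 96 h of ICG-001, while DKK3 and SFRP1 were detected in PANC1 and at or under the limit in HCT116.

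DKK1 encodes the best known DKK protein, which binds LRP6 and removes it from the WNT receptor complex. In HCT116 at 12 h its signal was 3690 in DMSO, 3602 in ICG-001 and 4393 in C646. At 96 h the same treatments gave 5294, 1095 and 4981. The ICG-001 column at 96 h thus stood far below the other 5, which lay between 3602 and 5294. Set against DMSO of its own time, DKK1 was 4.83-fold lower with ICG-001 at 96 h, a log2 ratio of -2.27. Only 1 of the 16571 genes tested in that comparison fell further. Of these genes, 10.6% differed by at least 1.5-fold in either direction, the size used throughout to call a gene changed.

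DKK1 did not pass 1.5-fold in the other 3 comparisons with DMSO in HCT116. For ICG-001 at 12 h its log2 ratio was -0.03, where 9.3% of genes passed. For C646 it was 0.25 at 12 h and -0.09 at 96 h, where 4.3% and 3.2% passed. In order of signal, ICG-001 and DMSO at 12 h, which were 0.03 apart on the log2 scale, and C646 and DMSO at 96 h, which were 0.09 apart, differed by less than 2 SD of the dim genes. The other steps in the order were larger. The drugs also differed directly. At 96 h DKK1 was 4.55-fold lower with ICG-001 than with C646, a ratio that ranked 5 from the lowest among 16656 genes, of which 6.69% passed 1.5-fold. At 12 h the log2 ratio of ICG-001 over C646 was -0.29, and 6.49% of genes passed. The comparisons of a drug with DMSO and of the drugs with each other share the ICG-001 column, so they are not separate evidence.

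In PANC1 at 12 h the DKK1 signal was 5080 in DMSO, 5263 in ICG-001 and 4525 in C646. At 96 h it was 6006, 3623 and 4618. The lowest column was again ICG-001 at 96 h and the highest DMSO at 96 h. With ICG-001 at 96 h DKK1 was 1.66-fold lower than in DMSO, a log2 ratio of -0.73, where 7.64% of genes passed 1.5-fold. Against the DMSO column of the other time point this log2 ratio was -0.49, which is short of 1.5-fold. At 12 h the log2 ratios were 0.05 for ICG-001 and -0.17 for C646, where 2.6% and 6.91% of genes passed, and for C646 at 96 h the ratio was -0.38, where 4.11% did. The columns of C646 at 12 and 96 h and of DMSO and ICG-001 at 12 h followed each other in steps of less than 2 SD of the dim genes. ICG-001 over C646 gave 0.22 at 12 h and -0.35 at 96 h, so neither difference between the drugs reached 1.5-fold, as 2.59% and 7.04% of genes did.

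DKK3 is a divergent member of the DKK family whose protein is not known to block LRP6 as DKK1 does. In PANC1 at 12 h its signal was 1350 in DMSO, 1378 in ICG-001 and 1501 in C646, and at 96 h it was 1723, 1810 and 1940. The 3 columns at 96 h were all above the 3 columns at 12 h, and no drug column was below its DMSO column. The steps from DMSO to ICG-001 at 12 and at 96 h were less than 2 SD of the dim genes, so no direction is read from them. The rise from 12 to 96 h was 1.28-fold in DMSO, 1.31-fold with ICG-001 and 1.29-fold with C646. Between drug and DMSO the log2 ratios of DKK3 were 0.03 and 0.07 for ICG-001 and 0.15 and 0.17 for C646, none of them at 1.5-fold. In HCT116 its signal was 124.1 to 130.9, at or under 90.2% of the limit. A further row is named RIG, an older symbol that the RefSeq table gives for DKK3 and also for DIRAS1 and RPS15. It was above the limit in no column and is not counted here.

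SFRP1 encodes a soluble protein with a Frizzled-like domain that binds WNT proteins. In PANC1 at 12 h its signal was 811.3 in DMSO, 568.3 in ICG-001 and 406.8 in C646, and at 96 h it was 643.5, 292.0 and 436.3. All 4 drug columns were below both DMSO columns. With ICG-001 at 96 h SFRP1 was 2.20-fold lower than in DMSO (log2 ratio -1.14), and only 59 of 16798 genes fell further. With C646 at 12 h it was 1.99-fold lower, and 64 of 16955 genes fell further. After 12 h of ICG-001 the signal was 1.43-fold lower, and after 96 h of C646 1.47-fold lower, both short of 1.5-fold. After a background correction both of these passed, with log2 ratios of -0.61 and -0.68. No share of all genes passing after this correction is given, so this passing is not set against other genes.

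The order of the drugs for SFRP1 differed by time. ICG-001 over C646 gave a log2 ratio of 0.48 at 12 h, with ICG-001 the higher, and -0.58 at 96 h, with ICG-001 the lower. Neither reached 1.5-fold, although both did after background correction (0.59 and -0.77), again with no share of all genes to set beside them. Within the order of signals, only C646 at 12 h and C646 at 96 h lay within 2 SD of the dim genes. In HCT116 the SFRP1 signal was 126.1 to 138.0, under the limit in every column. In PANC1 the epithelial markers also fell where DKK1 and SFRP1 were lowest. Their summed signal was 8882 for ICG-001 at 96 h and 14362 to 20320 in the other 5 columns, and that of KRT7, VIM, CDH2 and ZEB1 was 17256 against 18202 to 20634. Their part in the result was not tested. In RNA of a whole culture, fewer cells that express a gene cannot be told apart from less RNA per cell.

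Taking each line as a whole, 1 of the 4 comparisons of a detected member with DMSO passed 1.5-fold in HCT116, against 6.86% of all gene comparisons in this line. In PANC1 3 of 12 passed, against 5.33%. All 4 were lower with drug and none was higher. They came from DKK1 and SFRP1 alone, and DKK3 was never among them. With so few detected genes these shares are counts and no more.

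**Figure D2:**
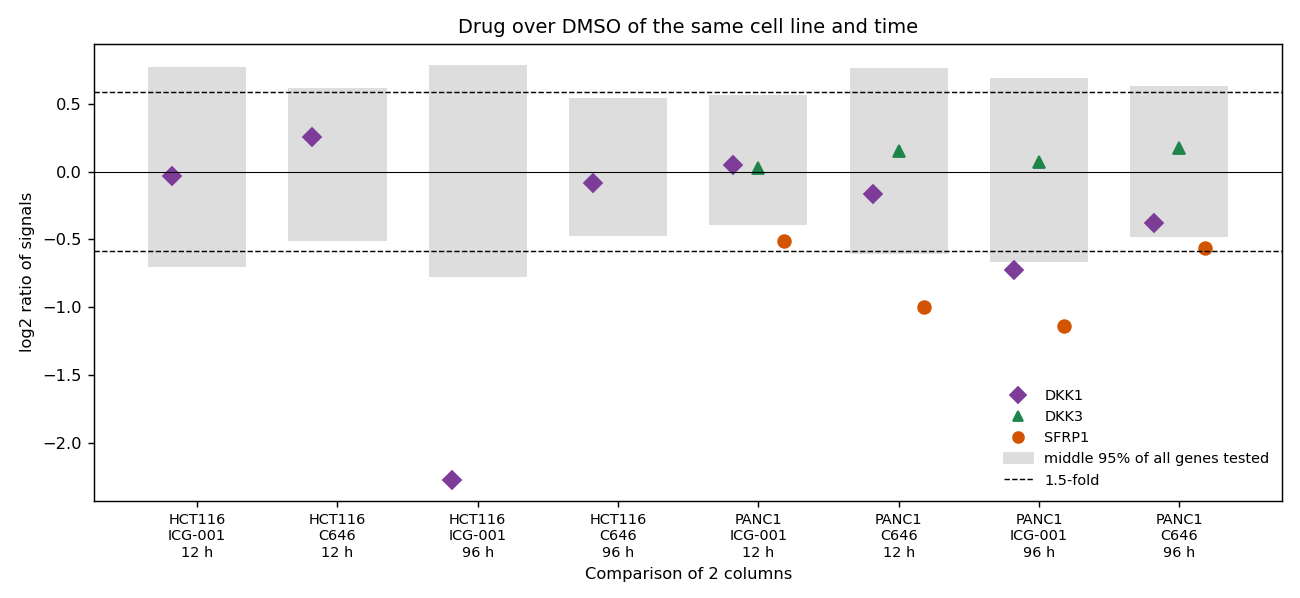
log2 ratio of signal, drug over DMSO of the same line and time, for the members above the detection limit in either column; grey bars span the middle 95% of all genes tested and dashed lines mark 1.5-fold. DKK1 lay at -2.27 in HCT116 with ICG-001 at 96 h, SFRP1 lay below the grey bar in all 4 PANC1 comparisons, and DKK3 lay inside it in all 4.

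Without a drug, no member passed 1.5-fold between 12 and 96 h. The log2 ratio of DKK1, 96 h over 12 h in DMSO, was 0.52 in HCT116 and 0.24 in PANC1. In ICG-001 the ratio had the opposite sign, a 3.29-fold fall from 12 to 96 h in HCT116 and a 1.45-fold lower signal in PANC1. In C646 the log2 ratios were 0.18 and 0.03. Between the times, 3.22% of genes passed 1.5-fold in DMSO, 7.08% in ICG-001 and 7.3% in C646 in HCT116, and 1.34%, 4.11% and 0.496% in PANC1. SFRP1 in PANC1 had a log2 ratio of -0.33 in DMSO, -0.96 in ICG-001 and 0.10 in C646, and the 1.95-fold fall in ICG-001 passed 1.5-fold. Against the DMSO column of the other time point, the HCT116 response of DKK1 to ICG-001 at 96 h was -1.75 in place of -2.27 on the log2 scale.

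**Figure D3:**
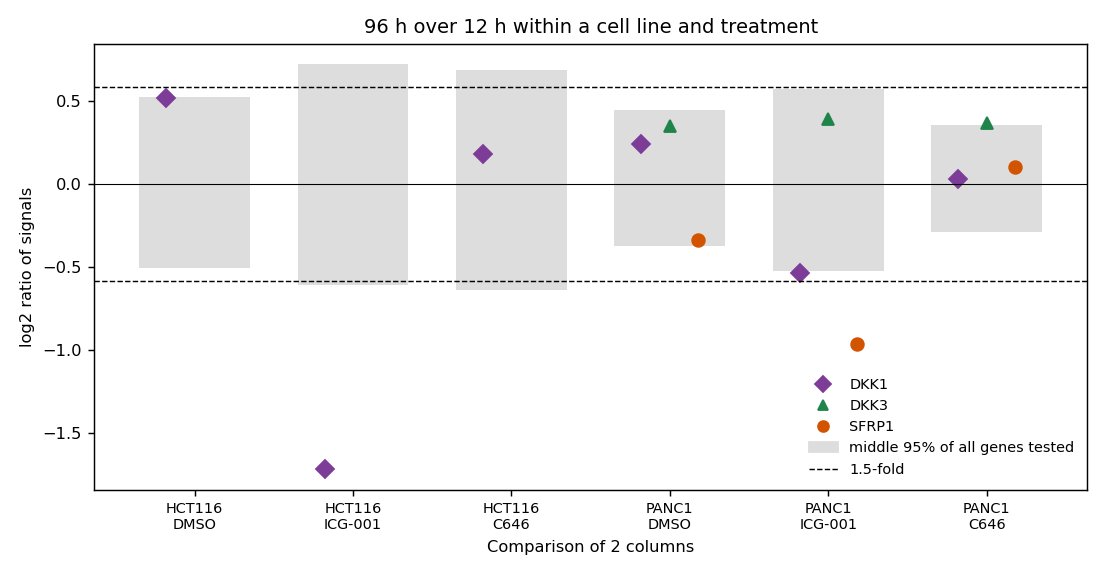
log2 ratio of signal, 96 h over 12 h within a line and treatment, for the members above the detection limit; grey bars span the middle 95% of all genes tested and dashed lines mark 1.5-fold. DKK1 in HCT116 lay at 0.52 in DMSO and -1.72 with ICG-001, and DKK3 in PANC1 lay between 0.35 and 0.39 in all 3 treatments.

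The remaining members stayed at background. DKK2 and DKK4 encode LRP6-binding proteins like DKK1. The DKK2 signal was 126.9 to 136.0 in HCT116 and 123.3 to 126.2 in PANC1, and that of DKK4 was 112.3 to 131.0 and 109.5 to 118.1. For the WNT-binding proteins, SFRP2 was at 116.7 to 127.6 in HCT116 and 114.6 to 124.2 in PANC1, and SFRP5 at 109.3 to 123.9 and 105.5 to 119.4. SFRP4 and WIF1 came nearest to the limit, at up to 98.1% of it for SFRP4 (PANC1, C646 at 96 h, a signal of 134.8) and 97.2% for WIF1 (PANC1, ICG-001 at 96 h, 133.5). Over the 56 drug comparisons in which a member was above the limit in neither column, log2 ratios ran from -0.22 to 0.15, and none reached 1.5-fold. A gene at background on this array may still be expressed at a level the probes cannot show, and no order is read from these values.

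**Figure D4:**
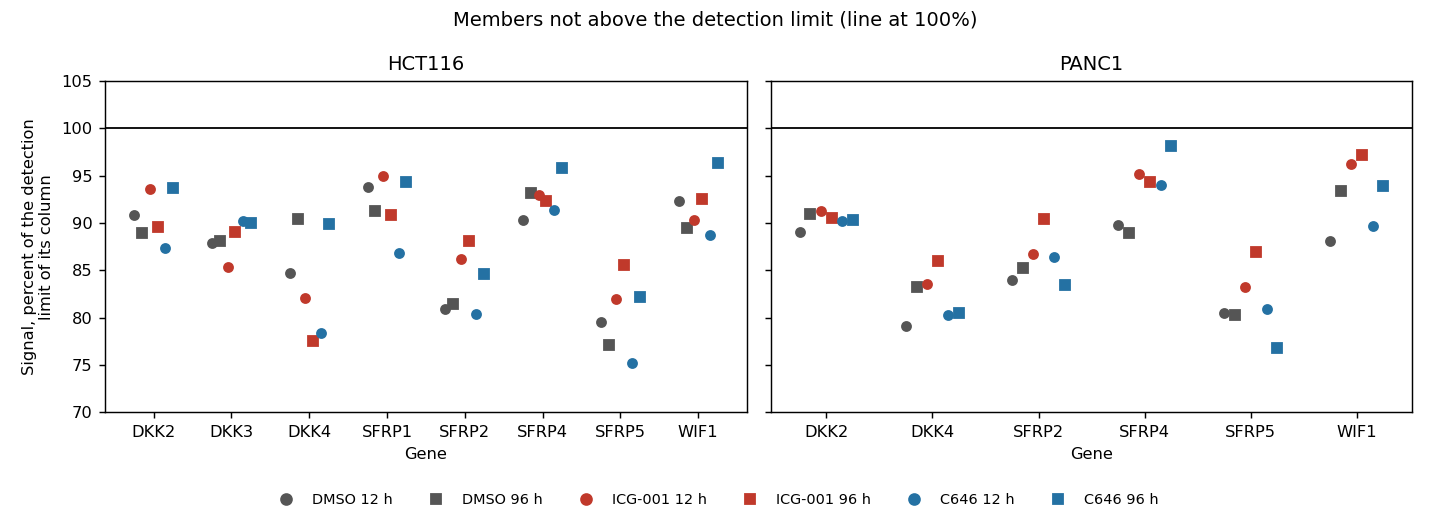
Signal of each member that was never above the detection limit in a line, as a percent of the limit of its column (black line), with colour for treatment and shape for time. All points lie under the line, the highest being SFRP4 in PANC1 with C646 at 96 h at 98.1%.

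The partners of the antagonists were examined through lists chosen by function, and 56 of their genes had a row. In at least 1 of the 8 comparisons with DMSO, 40 of them were tested and 6 passed 1.5-fold, which is 15% against 19.5% of all 20706 genes tested in at least 1. The 6 include WNT4, whose DMSO signal was under the limit, so that its passing is not shown. Among 17 receptors through which DKK and SFRP proteins act, 15 were above the limit in HCT116 and 16 in PANC1. For ICG-001 in HCT116 at 12 h, 5% of all genes tested rose by at least 1.5-fold and 4.31% fell. The 96 h shares were 5.3% for a rise and 5.27% for a fall. Of the 15 receptors tested there, 1 was higher and 1 lower at both time points. The higher one was FZD6, a Frizzled receptor, with a signal of 1009 against 586.5 in DMSO at 12 h and 1159 against 642.6 at 96 h. The lower one was FZD2, another Frizzled, with 254.2 against 395.8 and 316.6 against 478.7. FZD2 was also lower with ICG-001 at 96 h in PANC1, at 362.3 against 543.7, by 1.5004-fold and so barely past the threshold. In that comparison 3.67% of all genes were lower. The median log2 ratio of the receptors was -0.20 with ICG-001 at 12 h in HCT116, against 0.0025 for all genes tested, and between -0.07 and 0.11 in the other 7 comparisons.

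The co-receptors that DKK1 binds did not pass 1.5-fold against DMSO. They are named for their part in DKK1 action, after their values were seen. In PANC1 at 12 h the LRP5 signal was 520.5 in DMSO, 503.4 in ICG-001 and 761.0 in C646, and at 96 h it was 674.3, 730.8 and 932.0. With C646 LRP5 was thus 1.46-fold and 1.38-fold higher than in DMSO, and at 12 h it was 1.51-fold lower with ICG-001 than with C646, a difference that 0.96% of genes reached downward. In HCT116 the LRP5 signal ran from 286.9 in ICG-001 at 12 h to 466.2 in ICG-001 at 96 h. LRP6 log2 ratios lay between -0.04 and 0.22 over the 8 comparisons. Its signal was dim, from 135.0 in DMSO at 12 h in PANC1, under the limit, to 174.4 in C646 at 12 h in HCT116. With background left in, such ratios understate changes, so LRP6 is not shown to be stable.

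Of the other secreted inhibitors and modulators, 9 of 12 names had a row, 5 were above the limit in HCT116 and 4 in PANC1. IGFBP4, an insulin-like growth factor binding protein that can also restrain WNT signaling, was the only one past 1.5-fold against DMSO. In PANC1 at 12 h its signal was 913.3 in DMSO, 512.7 in ICG-001 and 301.4 in C646, and at 96 h it was 886.2, 363.8 and 237.6. It was lower in all 4 comparisons, from 1.78-fold with ICG-001 at 12 h to 3.73-fold with C646 at 96 h, and at both times C646 was the lower of the drugs. Of all genes, 0.348% and 3.67% were lower by 1.5-fold with ICG-001 at 12 and 96 h in PANC1, and 2.78% and 1.22% with C646. In HCT116 it was above the limit in no column. FRZB, a further SFRP family gene named after its values were seen, was dim in HCT116, from 135.9 in ICG-001 at 12 h up to 218.3 in C646 at 96 h, and did not pass 1.5-fold against DMSO. In PANC1 it was above the limit in no column.

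The ligands and their release gave few changes. Of 19 WNT genes, 9 were above the limit in HCT116 and 6 in PANC1. WNT3A was at 400.2 with C646 at 12 h in HCT116 against 266.1 in DMSO, barely past 1.5-fold, where 2.7% of genes were higher. WNT4 was at 189.2 with ICG-001 at 96 h in PANC1 against 125.5 in DMSO. Since the DMSO signal was under the limit, WNT4 was at least 1.36-fold higher, a bound short of 1.5-fold. GPR177, the older name of WLS, whose protein carries WNT proteins to the cell surface, was 1.56-fold lower with ICG-001 at 96 h in PANC1 (317.5 against 496.5). There, 3.67% of all genes were lower by 1.5-fold. Of the 9 genes listed for the R-spondin axis, 3 were above the limit in HCT116 and 2 in PANC1. No R-spondin gene itself was among them, and none of the 9 passed 1.5-fold against DMSO.

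Genes that resembled DKK1 and SFRP1 over the 6 columns of a line were ranked by Pearson's r of log2 signal among genes with a range of at least 1.5-fold, as a description. In HCT116 the highest values for DKK1 were those of FSD1 (0.993), INTS1 (0.990) and MMS19 (0.981) among 4816 genes. In PANC1 they were CENPF (0.968), GPR177 (0.967) and GNAI3 (0.967) among 3117 genes. For SFRP1 in PANC1 they were IMMT (0.998), LCMT2 (0.998) and DEDD (0.995). The 6 columns share their normalization, and with so few of them a high r is a weak sign of likeness. In HCT116 the DKK1 range is set largely by the ICG-001 column at 96 h, and the FSD1 signal went down to 135.2, under the limit. In PANC1, 130 genes had an r of at least 0.95 with SFRP1 and 8 with DKK1, and in HCT116 12 had it with DKK1. DKK3 had a range under 1.5-fold in PANC1 and was not ranked.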

How the data were processed

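Illumina HumanHT-12 BeadChips were used. The deposited signal intensity is linear, with a single value for every gene name. According to the methods, the authors read the chips in GenomeStudio (version not given in the sources used here), applied quantile normalization, left background in, and averaged replicate arrays, so ratios of dim genes understate their changes. Detection p-values and values of single arrays were not used here, and the number of arrays limits the precision.

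Ratios were differences of log2 signal. A gene was tested when above the detection limit in either column, and called at 1.5-fold. Named genes were the 9 members, list genes called in a comparison with DMSO, and the 3 most similar genes per member. LRP5, LRP6 and FRZB fall outside this rule and were added after their values were seen. Members and lists were chosen with earlier results of these data known. As alternatives, the fold threshold was set at 1.2 or 2, the limit at 5 SD or dropped, and the values were taken after normexp correction (offset 16), after median centring, after quantile normalization over 12 columns, or against the other DMSO column. Promoter windows came from RefSeq (GRCh38.p14), and the build of the array annotation was not stated. Python 3.11.15, numpy 2.4.6, pandas 2.3.3, scipy 1.17.1, matplotlib 3.10.9, R 4.3.3 and limma 3.58.1 were used, and calling was tested on simulated data.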

Additional observations from a re-analysis of the deposited data

How the results depend on the processing

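In HCT116, 1 comparison of a member with DMSO passed the fold threshold, and this count was 1 under all 8 alternatives. In PANC1 the count was 3, and it was 6 at 1.2-fold, 1 at 2-fold and 5 after normexp with an offset of 16. It was 3 under the other 5 alternatives. No share of all genes at these settings is given, so the counts do not show a larger or smaller response. The number of detected members, 1 in HCT116 and 3 in PANC1, was the same with the limit at 5 SD. The log2 ratio of DKK1 in HCT116 with ICG-001 at 96 h was -2.27, and -2.40 to -1.75 under its 4 alternatives. Over 36 ratios of detected members, no sign changed with normexp, median centring or quantile normalization over 12 columns; under the last, DKK1 in PANC1 with ICG-001, 96 h over 12 h, moved from -0.54 to -0.61 and passed 1.5-fold. With the other DMSO column, 5 of 16 ratios changed sign, none of them past 1.5-fold in the planned comparison; in PANC1 at 96 h, DKK1 with ICG-001 no longer passed 1.5-fold (-0.49) and SFRP1 with C646 did (-0.89). The cause of these differences was not tested. No paired analysis was possible because each group is 1 column in which the replicates are already averaged.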
